A study of Mus musculus with 6 samples.

Results

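The 10 genes described here take part in the entry of glucose and of its carbon into oxidation, and their transcripts were measured in the hearts of mice on a high fat diet (HFD) or a normal diet (ND). They are the pyruvate dehydrogenase kinases *Pdk1*, *Pdk2*, *Pdk3* and *Pdk4*, the phosphatase *Pdp2*, the pyruvate dehydrogenase subunits *Pdha1*, *Pdhb* and *Dlat*, and the glucose transporters *Slc2a1* (GLUT1) and *Slc2a4* (GLUT4). The members were all probes, other than controls, that carry exactly 1 of these 10 names among the 36163 gene names of the array, which gave 14 of 55681 probes. Of the genes, 7 had 1 probe, *Pdk2* and *Pdp2* had 2, and *Pdhb* had 3. All 14 probes were well above background on all 6 arrays, so no member was lost to the filter on dim probes.

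RNA came from hearts of male C57BL/6 mice that, from the age of 4 weeks, received standard chow (ND, 3 mice) or a diet with 60% of its energy as fat (HFD, 3 mice) for 4 months. Both groups were on the same background, and the labels name no other treatment or allele. Each heart was hybridised to 1 Agilent mouse array in 1 colour, and the labels do not say which chambers were taken or whether the hearts were perfused. Levels are given as log2 levels, in which 0 is the brightness of the 75th percentile of that array, and differences are HFD minus ND on the same scale.

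The pyruvate dehydrogenase complex turns pyruvate into acetyl-CoA and is the gate through which glucose carbon enters oxidation. The kinases PDK1 to PDK4 phosphorylate its E1 subunit and switch the complex off, and the phosphatases PDP1 and PDP2 switch it back on. The heart burns mainly fatty acids, PDK4 is known there as the kinase induced by fasting and lipid supply through PPAR alpha, GLUT4 moves to the cell surface in response to insulin and contraction, and GLUT1 carries basal glucose uptake. Transcript levels do not report the phosphorylation of the complex or the place of the transporters in the cell.

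The sequences below are the first 30 bases of the array probes for *Slc2a1*, *Slc2a4* and *Pdp2*, the genes at an unadjusted p below 0.05, and for *Pdk4*, the bright member that varied most, written 5′ to 3′ in the sense of the transcript. Positions are those in the array files (mm9), and no annotation of that build was used to place them in exons or untranslated regions.
*Slc2a1* (probe A_51_P464738, chr4:118809864-118809893, plus strand): acccacttgtaaatacaccaacaaactcct
*Slc2a4* (probe A_51_P217498, chr11:69756103-69756132, minus strand): gttttgaagaacggatagggagcagaaacc
*Pdp2* (probe A_66_P111285, chr8:107120490-107120519, plus strand): gtcagcacttcagccatcgtcggcaaggct
*Pdp2* (probe A_66_P114722, chr8:107118067-107118096, plus strand): ggcaggagctccttgacctgcatatggaaa
*Pdk4* (probe A_51_P350453, chr6:5433471-5433500, minus strand): tatgaacccatgggagactttaaactcttg

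The labelled tissue was checked first. All 8 cardiomyocyte markers (among them *Myh6*, *Tnnt2* and *Myl2*) were well above background on all 6 arrays. Their summed level, in multiples of the 75th percentile of the array, lay between 4697 and 4815 in ND and between 4200 and 5061 in HFD. HFD 2 stood apart from the other hearts. Its atrial markers (*Nppa*, *Myl4*, *Myl7*, *Sln* and *Bmp10*) summed to 67.6 against 237 to 1398 in the other 5 hearts, its white adipocyte markers to 0.444 against 3.48 to 8.82, and its spike-in slope of 0.896 was outside the range accepted by the scanner software (0.921 to 0.958 on the other arrays). The 6 arrays shared 1 slide. Row 1 of it held HFD 1 and HFD 2, so that HFD 3 was the only HFD heart in the row of the ND hearts. The log2 fold changes of the members are therefore also given without HFD 2 and within row 2.

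No member passed the Benjamini-Hochberg adjustment at 0.05 in limma, where 4 of 27575 probes tested did (0.0145% of them). At an unadjusted p below 0.05, the limit named in the study's methods, 4 of the 14 member probes (28.6%) differed between the diets in limma. These 4 belonged to 3 genes, *Slc2a1*, *Slc2a4* and *Pdp2*, and all were lower in HFD. Of all probes tested, 11.9% met that limit in limma, 6.07% lower and 5.86% higher in HFD. The methods' t-test also counted 4 member probes, beside 11.5% of all probes tested. The diets did not overlap in 5 member probes (35.7%), again all lower in HFD, against 19.2% of all probes tested. The median log2 fold change was -0.12 over the 14 probes and 0.0034 over all probes tested, and no member probe differed by 2-fold or more. Without HFD 2, 7 member probes met the unadjusted limit, the other 3 being 1 of *Pdk2* and the 2 bright ones of *Pdhb*, all lower in HFD, and in that fit 12.5% of all probes tested met it.

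**Figure D1:**
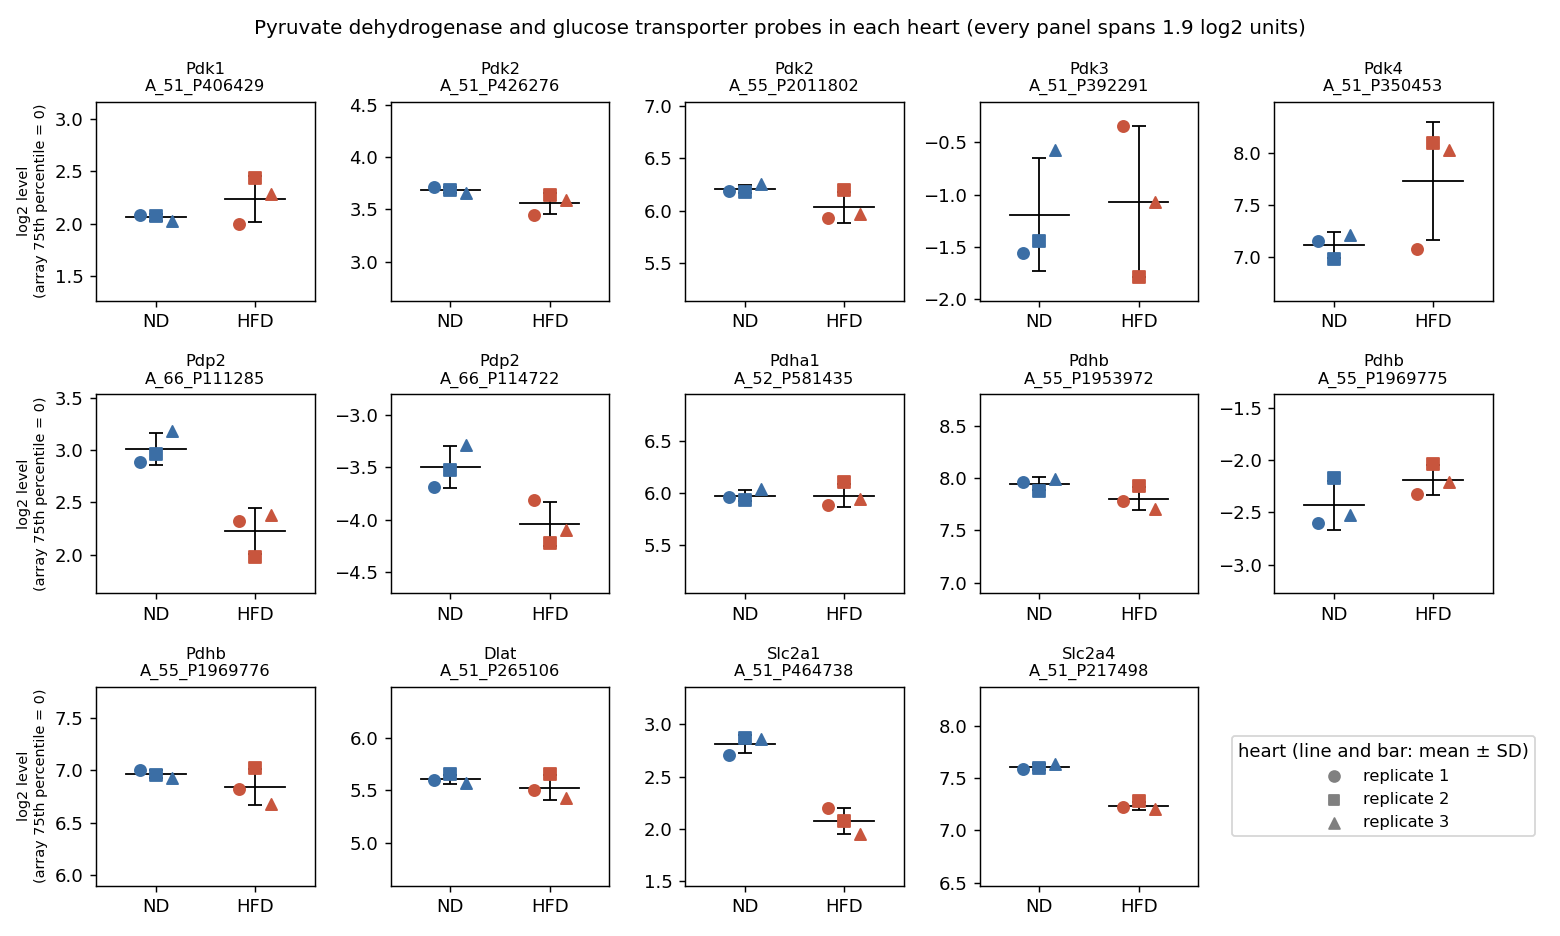
Log2 level (y axis, array 75th percentile at 0) of the 14 member probes in each ND and HFD heart (x axis), 1 panel per probe. Points are hearts, with a shape for each replicate number, lines and bars are the mean ± SD of 3 hearts, and every panel spans the same range in log2 units. The HFD points of *Slc2a1*, *Slc2a4* and both *Pdp2* probes lie below all ND points, while HFD 1 lies among the ND points for *Pdk4*.

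*Slc2a1*, the basal glucose transporter, had the lowest p of the members. Its log2 level was 2.71, 2.87 and 2.86 in ND 1 to 3 and 2.20, 2.08 and 1.95 in HFD 1 to 3. In the deposited intensities this was 2677, 2952 and 2869 against 1951, 1589 and 1744. Every HFD heart lay below every ND heart, and the gap between the groups was wider than the range within either. The mean was 2.81 ± 0.09 in ND and 2.08 ± 0.13 in HFD (SD, n = 3 each), a log2 fold change of -0.74 (SE 0.09), so that HFD hearts held 60.0% of the ND level (95% interval 51.3% to 70.3%). In limma the adjusted p was 0.0993, rank 61 of the 27575 probes by p. The exact permutation test over hearts gave p = 0.1, two-sided, the smallest p that 3 against 3 hearts allow. The log2 fold change was -0.74 without HFD 2 and -0.86 within row 2 (HFD 3 against the 3 ND hearts). With normexp background correction (adjusted p = 0.0303) or with an intensity trend and robust variances (adjusted p = 0.0262), limma called *Slc2a1* after adjustment. These 2 settings called 45 and 97 of all probes tested, against 4 in the fit reported here. Over all 17 alternatives the adjusted p of *Slc2a1* ran from 0.0262 to 0.445.

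*Slc2a4*, the insulin-responsive transporter, was measured by 1 probe printed in 10 spots on each array, which shows how well a single array reads it. The 9 or 10 spots without an outlier flag had a coefficient of variation of 1.61% to 4.30%. The log2 level was 7.59, 7.59 and 7.64 in ND 1 to 3 and 7.22, 7.28 and 7.21 in HFD 1 to 3. The diets did not overlap, and hearts of the same diet differed by less than 0.1 log2 units. The mean was 7.61 ± 0.03 in ND and 7.24 ± 0.04 in HFD (SD, n = 3 each). The log2 fold change was -0.37 (SE 0.06), which put HFD hearts at 77.4% of the ND level (95% interval 69.8% to 85.9%). The adjusted p in limma was 0.140 (rank 186) and the exact permutation p was 0.1. Without HFD 2 the log2 fold change was -0.39, and within row 2 it was -0.40. With an intensity trend and robust variances the adjusted p was 0.0390, the lowest of the 17 alternatives, over which it reached up to 0.580.

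In RNA of whole tissue, fewer cells of a type and less RNA per cell cannot be told apart. GLUT1 is also made by endothelial and blood-forming cells and GLUT4 by skeletal muscle and fat cells, so the markers of these cells are given beside both genes. The 7 endothelial markers, all well above background on all arrays, summed to 54.8 to 60.5 in ND and 54.9 to 64.5 in HFD, with overlap. The 8 erythroid markers, 6 of them well above background on all arrays, summed to 742.5 to 952.0 in ND and 480.7 to 674.0 in HFD, without overlap. Of the 7 skeletal muscle markers, 3 were well above background on all arrays and *Mylpf* on none, and their sum was 4.33 to 4.59 in ND and 2.96 to 3.65 in HFD, again without overlap. The 6 white adipocyte markers, of which *Lep* was in no heart well above background, overlapped between the diets (3.76 to 8.49 and 0.444 to 8.82). The part of erythroid and skeletal muscle RNA in the lower *Slc2a1* and *Slc2a4* levels was not tested.

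*Pdp2*, the phosphatase that reactivates the complex, was read by 2 probes on the same transcript, at positions 815 and 3238. The probe at position 3238 had a log2 level of 2.89, 2.96 and 3.19 in ND 1 to 3 and of 2.32, 1.98 and 2.38 in HFD 1 to 3. The mean was 3.01 ± 0.16 in ND and 2.23 ± 0.22 in HFD (SD, n = 3 each), with no overlap. Its log2 fold change was -0.79 (SE 0.14), or 58.0% of the ND level (95% interval 45.9% to 73.4%), with an adjusted p of 0.152 in limma and an exact permutation p of 0.1. The probe at position 815 was dim, with intensities of 32 to 41 in ND and 20 to 30 in HFD, but was well above background on all arrays. It also read every HFD heart below every ND heart, with log2 levels of -3.69, -3.52 and -3.28 in ND 1 to 3 and -3.81, -4.22 and -4.10 in HFD 1 to 3. Its log2 fold change was -0.55 (SE 0.15, adjusted p = 0.280). With normexp background correction it shrank to -0.20, so the size of this difference depended on how background was handled. HFD 2 was the lowest heart on both probes. Without it the log2 fold changes were -0.66 (position 3238) and -0.46 (position 815), and within row 2 they were -0.63 and -0.60.

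*Pdk4*, the kinase induced by lipid supply, had the largest difference toward higher levels and the largest spread among the bright members. Its log2 level was 7.16, 6.98 and 7.21 in ND 1 to 3 and 7.08, 8.09 and 8.02 in HFD 1 to 3. HFD 1 lay within the ND range, while HFD 2 and HFD 3 were above all ND hearts. In intensities, the ND hearts read 58475, 51109 and 58669, and the HFD hearts 57269, 102562 and 117243. The mean was 7.12 ± 0.12 in ND and 7.73 ± 0.56 in HFD (SD, n = 3 each). The log2 fold change was 0.61 (SE 0.28, 95% interval -0.07 to 1.29), or 1.53-fold, with an adjusted p of 0.459 in limma and an exact permutation p of 0.3. The SD among HFD hearts was larger than that of 95.3% of all probes tested, and that among ND hearts than 55.9%. The difference did not pass the test, and its size depends on which HFD hearts enter. It was 0.94 without HFD 1 (adjusted p = 0.166), 0.43 without HFD 2 (adjusted p = 0.582) and 0.90 within row 2.

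The other kinases differed less. *Pdk1* is the kinase known for its induction by hypoxia. It had log2 levels of 2.08, 2.08 and 2.02 in ND 1 to 3 and 1.99, 2.43 and 2.28 in HFD 1 to 3, with HFD 1 again the lowest HFD heart. Its log2 fold change was 0.18 (SE 0.12, adjusted p = 0.620), 0.30 without HFD 1 (adjusted p = 0.322), 0.078 without HFD 2 (adjusted p = 0.784) and 0.22 within row 2. *Pdk2* is the most widely expressed kinase, and its 2 probes gave -0.12 (SE 0.08) and -0.18 (SE 0.09), at adjusted p of 0.582 and 0.517. The first of them (A_51_P426276) read 3.71, 3.68 and 3.65 in ND and 3.44, 3.64 and 3.59 in HFD, so that the diets did not overlap although the means lay 0.12 apart. On the second (A_55_P2011802), HFD 2 at 6.20 lay within the ND range of 6.18 to 6.25, and HFD 1 and HFD 3 were below it at 5.93 and 5.96. Without HFD 2 the 2 probes gave -0.16 and -0.26, and within row 2 -0.09 and -0.24. *Pdk3* was dim and variable, from -1.56 to -0.58 in ND and from -1.78 to -0.34 in HFD. Its log2 fold change was 0.13 (SE 0.43), and the 95% interval reached from 52.6% to 226% of the ND level, so that only a larger difference could have been detected with these hearts. It was 0.48 without HFD 2 and 0.12 within row 2.

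The subunits of the complex lay close together in both diets. *Pdha1*, the E1 alpha subunit that the kinases phosphorylate, had log2 levels of 5.96, 5.93 and 6.03 in ND 1 to 3 and 5.89, 6.10 and 5.94 in HFD 1 to 3. Its log2 fold change was -0.00042 (SE 0.08), and the 95% interval of -0.20 to 0.20 bounds a difference at 87.0% to 115% of the ND level. Without HFD 2 it was -0.063 and within row 2 -0.036. *Dlat*, the E2 subunit, gave -0.08 (SE 0.08, 95% interval -0.28 to 0.12), with 5.60, 5.65 and 5.57 in ND and 5.50, 5.65 and 5.42 in HFD. It was -0.14 without HFD 2, -0.18 within row 2 and -0.028 without HFD 3. *Pdhb* encodes the E1 beta subunit. Its 2 bright probes lie next to each other on 1 transcript and share 15 bases, given in capitals, so they are not independent readings.
*Pdhb* (probe A_55_P1953972, bases 31 to 60, chr14:8998548-8998577, minus strand): ctaagaagtatattaTCTACATTTGCTGTT
*Pdhb* (probe A_55_P1969776, bases 1 to 30, chr14:8998533-8998562, minus strand): TCTACATTTGCTGTTtaattgttttgataa
The first gave -0.14 (SE 0.08) with an adjusted p of 0.560, the second -0.13 (SE 0.10) with an adjusted p of 0.677, and in both HFD 1 and HFD 3 lay below all ND hearts. HFD 2 lay within the ND range on the first (7.93) and just above it on the second (7.02, with the highest ND heart at 7.01). Without HFD 2 the differences were -0.20 and -0.22, and within row 2 they were -0.24 and -0.29. The third *Pdhb* probe (A_55_P1969775) was designed on another transcript, AK084507, and was dim, with intensities of 67 to 98. Its value of 0.24 (SE 0.14, adjusted p = 0.561) had the opposite sign, and the average over the 3 probes was -0.0084. Without HFD 2 its value was 0.17 and within row 2 it was 0.23.

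**Figure D2:**
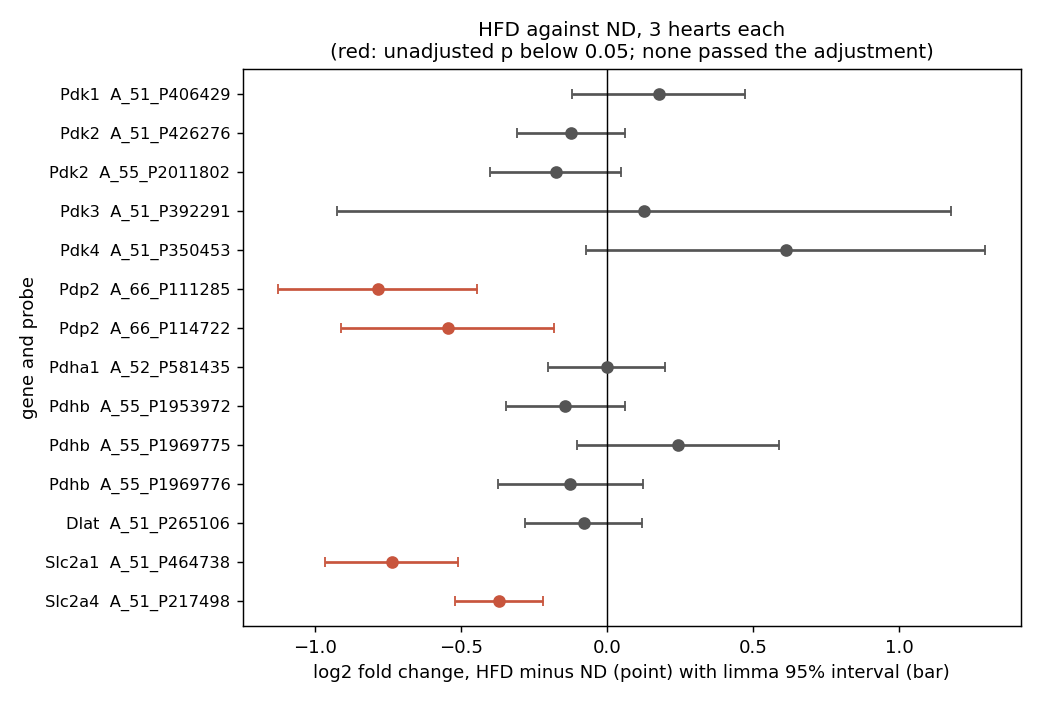
Log2 fold change of HFD over ND (x axis) of the 14 member probes (y axis), with the 95% interval of limma as bars and 3 hearts per diet. Red probes have an unadjusted p below 0.05 and none passed the adjustment. The intervals of *Slc2a1*, *Slc2a4* and both *Pdp2* probes lie below 0, that of *Pdk4* runs from -0.07 to 1.29, and that of *Pdha1* is centred on 0.

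Around the members, the rest of the complex, its regulators and the entry of pyruvate gave 14 tested genes of 15 on the array. At an unadjusted p below 0.05, 0 were higher and 2 lower (14.3%, beside 11.9% of all probes tested), with 0 past the adjustment. The median was -0.12, and 10 of 14 were lower, beside 13523 of the 27575 probes tested. *Pcx*, pyruvate carboxylase, which carries pyruvate to oxaloacetate instead of acetyl-CoA, had log2 levels of 3.69, 3.66 and 3.67 in ND 1 to 3 and of 3.02, 2.93 and 2.96 in HFD 1 to 3. The diets were well apart, at a difference of -0.71 (SE 0.06), and the adjusted p in limma was 0.0730. *Gpt*, which exchanges alanine and pyruvate, had -0.54 (SE 0.13, adjusted p = 0.256). The remaining genes did not meet the limit. The lactate and pyruvate carriers gave 0.33 for *Slc16a7* (SE 0.32) and *Slc16a3* (SE 0.22) and -0.26 for *Slc16a1* (SE 0.23). *Slc16a1* and *Slc16a7* were dim, with mean log2 levels of -2.47 and -1.16 in ND. *Pdhx*, the E3-binding subunit, gave -0.23 (SE 0.11). *Pdp1*, the other phosphatase, gave 0.16 (SE 0.09, adjusted p = 0.561), and the mitochondrial pyruvate carriers *Brp44l* (*Mpc1*) and *Brp44* (*Mpc2*) gave -0.17 and -0.13.

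Of the other glucose transporters and the proteins that bind them, 8 of 14 genes could be tested and 0 met the unadjusted limit in limma, with a median of -0.04. The methods' t-test counted 1. *Txnip*, which holds GLUT1 and GLUT4 away from the cell surface, gave -0.57 (SE 0.27, adjusted p = 0.479), with overlap between the diets. The others ranged from -0.38 (*Slc2a6*, SE 0.20) to 0.51 (*Slc2a10*, SE 0.22), with *Slc2a13* at 0.45 (SE 0.24), *Slc2a8* at -0.15 and *Arrdc4* at 0.09. *Slc2a6*, *Slc2a10* and *Slc2a13* were dim, with mean log2 levels of -2.68, -2.25 and -2.74 in ND. Among 17 genes of GLUT4 vesicle traffic, all tested, 1 was lower and 0 higher at the unadjusted limit, with a median of -0.05. *Tbc1d4*, the Rab regulator that insulin switches off, gave 0.28 and *Tbc1d1* 0.27, *Snap23* gave 0.20, *Tusc5* -0.19 and *Myo1c* -0.16, and none of them met the limit. The share of the list at the limit was 5.88%, beside 11.9% of all probes tested.

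Of 17 tested transcription factors and coregulators that act on *Pdk4* and *Slc2a4*, 5 were lower and 1 higher at the unadjusted limit (35.3% together, beside 11.9% of all probes tested), with a median of -0.05 and 0 past the adjustment. *Foxo3*, a forkhead factor of fasting, gave -0.76 (SE 0.10, adjusted p = 0.114) and *Foxo1* -0.23 (SE 0.07, adjusted p = 0.307). *Mef2a*, a muscle factor that binds the *Slc2a4* promoter, gave -0.31 (SE 0.07, adjusted p = 0.229), with 1.72 to 1.88 in ND and 1.47 in each HFD heart. *Esrrb* gave -0.23 and *Ppard* -0.16. The gene that was higher was *Ppargc1b*, a coactivator of mitochondrial genes (0.61, SE 0.14, adjusted p = 0.247). *Ppara* itself gave -0.05 (SE 0.08, adjusted p = 0.833), with 4.72, 4.79 and 4.58 in ND and 4.61, 4.66 and 4.67 in HFD.

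*Pdk4* is a target of PPAR alpha, so the other targets known in the heart were set beside it. Of 26 tested targets among 28 on the array, 14 were higher and 0 lower at the unadjusted limit. That was 53.8%, beside 5.86% of all probes tested that were higher. A value above 0 was found in 24 of the targets, beside 14052 of the 27575 probes tested. The median log2 fold change of the targets was 0.27, and 0 passed the adjustment. Genes of fatty acid use were already known to be higher in these hearts when the list was drawn up, so its direction is no independent evidence. The thioesterase *Acot1* gave 1.57 (SE 0.29, adjusted p = 0.167), with 3.45, 3.71 and 3.77 in ND and 4.55, 5.52 and 5.57 in HFD. The related *Acot2* gave 1.12 (SE 0.16), the peroxisomal *Pex11a* 0.69, the uncoupling protein *Ucp3* 0.51 and the reductase *Decr1* 0.49. Lipoprotein lipase *Lpl* (-0.22, SE 0.09) and its inhibitor *Angptl4* (-0.20, SE 0.60) were the 2 targets with a value below 0, and neither met the limit.

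The mean log2 level over the 26 targets was 5.70, 5.72 and 5.79 in ND 1 to 3 and 5.99, 6.25 and 6.24 in HFD 1 to 3. HFD 1 was thus the lowest HFD heart for the targets as well as for *Pdk4*, but it lay above all ND hearts for the targets and within them for *Pdk4*. For *Acot1* HFD 1 lay 0.91 above the ND mean, against 1.88 and 1.93 in HFD 2 and HFD 3. For *Pdk4* the corresponding values were -0.04 in HFD 1, 0.97 in HFD 2 and 0.90 in HFD 3.

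**Figure D3:**
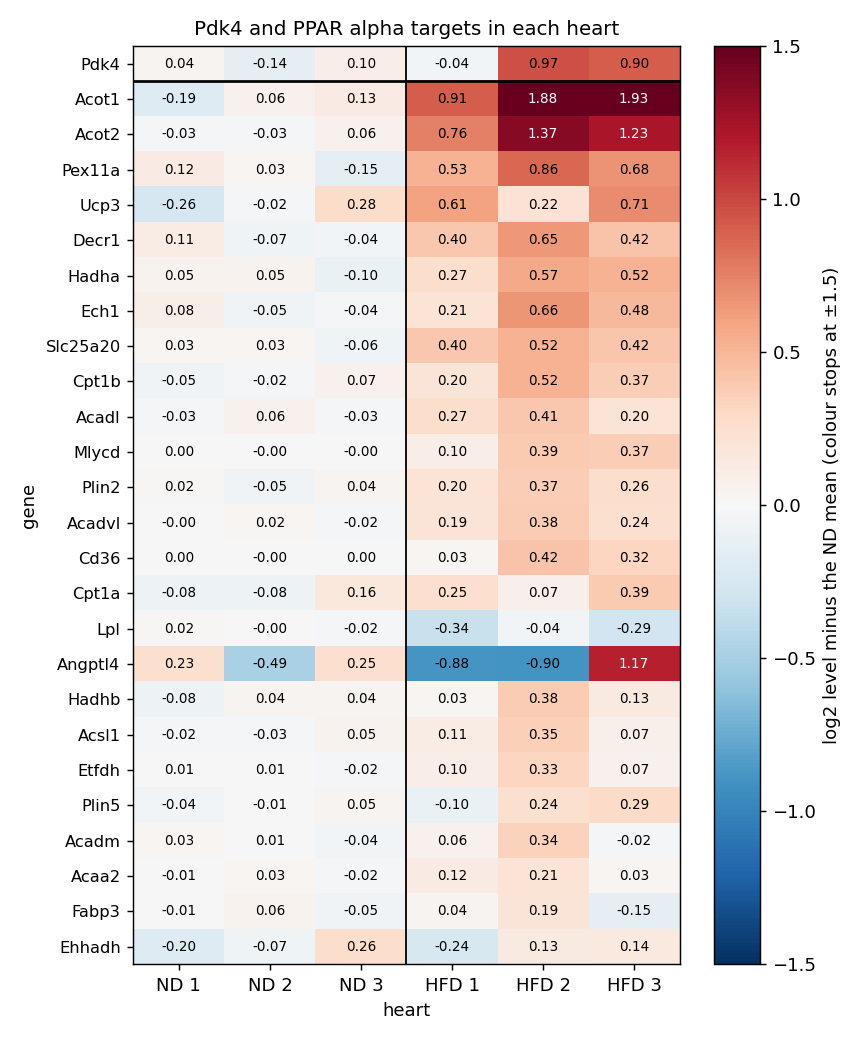
Log2 level minus the ND mean of *Pdk4* (top row) and 25 other PPAR alpha targets (y axis) in each of the 6 hearts (x axis), with the value in each cell and the colour scale stopping at 1.5 in either direction. *Acot1*, *Acot2* and *Pex11a* are above the ND mean in all 3 HFD hearts, while *Pdk4* is so in HFD 2 and HFD 3 only.

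The genes with the most similar profiles over the 6 hearts were taken by Pearson's r among 19164 probes of other named genes, as a description in which the points share the diet groups and the array scaling. For *Pdk4* these were *Stag1* (r = 0.995), *Acads* (r = 0.990), *Lipe* (r = 0.990), *Chmp2b* (r = 0.989) and *Rftn1* (r = 0.989). Acyl-CoA dehydrogenase *Acads* read 3.01, 2.96 and 3.05 in ND and 2.88, 3.60 and 3.58 in HFD, and the hormone-sensitive lipase *Lipe* -0.68, -0.75 and -0.65 in ND and -0.62, -0.14 and -0.17 in HFD. HFD 1 lay close to the ND hearts in both, which follows from their choice by likeness to *Pdk4* and is no separate evidence. For *Slc2a1* they were *Dera* (r = 0.997), *Phb* (r = 0.995), *Epha5* (r = 0.995), *Ubl7* (r = 0.993) and *Agxt2l2* (r = 0.993), whose log2 fold changes ran from -0.54 (*Dera*) to -0.15 (*Ubl7*).

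The promoters of the members were searched for 5 short motifs on both strands in the 250 bases before each RefSeq transcription start (GRCm38.p6). An entry was found for 9 of the 10 genes, with 11 promoters, and *Slc2a4* had none. The GC box GGGCGG occurred in 6 of the 11 (32.7% of 32851 promoters of all genes), CCAAT in 5 (33.8%) and the E-box CACGTG in 2, *Pdk2* and *Pdp2* (6.02%). The nuclear receptor half-site AGGTCA (14.0% of all promoters) and the forkhead site TGTTTAC (3.17%) occurred in 0 of the 11 windows. The promoters of the members with the clearest differences and of *Pdk4* are given with the motif matches in capitals, where CCGCCC and ATTGG are GGGCGG and CCAAT on the other strand.
*Slc2a1* (chr4:119108495-119108744, plus strand): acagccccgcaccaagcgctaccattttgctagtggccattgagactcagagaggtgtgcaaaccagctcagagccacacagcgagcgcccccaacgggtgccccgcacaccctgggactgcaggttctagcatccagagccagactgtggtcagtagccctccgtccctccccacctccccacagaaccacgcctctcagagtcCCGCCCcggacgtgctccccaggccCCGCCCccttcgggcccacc
*Pdp2* (chr8:104591222-104591471, plus strand): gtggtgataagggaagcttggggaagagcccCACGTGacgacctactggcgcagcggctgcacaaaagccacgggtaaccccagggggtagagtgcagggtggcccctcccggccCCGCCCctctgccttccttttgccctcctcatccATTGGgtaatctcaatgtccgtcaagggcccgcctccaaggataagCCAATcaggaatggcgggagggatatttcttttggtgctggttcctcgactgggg
*Pdk4* (chr6:5496279-5496528, minus strand): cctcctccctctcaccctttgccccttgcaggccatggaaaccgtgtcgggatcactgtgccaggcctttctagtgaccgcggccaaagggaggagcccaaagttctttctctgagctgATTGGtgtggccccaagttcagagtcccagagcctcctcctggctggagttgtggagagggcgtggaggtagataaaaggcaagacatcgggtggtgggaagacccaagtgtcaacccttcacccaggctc
*Slc2a1* holds 2 GC boxes close to its start and no other motif searched, *Pdp2* an E-box, a GC box and 2 CCAAT boxes, and *Pdk4* a single CCAAT box. A match describes these letters only.

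The 5 probes in the plot of processing alternatives kept their sign in all 17 or 18 alternatives run on each, leave-one-out fits included. *Slc2a1* ranged from -0.86 to -0.67, *Slc2a4* from -0.40 to -0.33 and *Pdk4* from 0.43 to 0.94. *Pdp2* ranged from -0.86 to -0.63 at position 3238 and from -0.66 to -0.20 at position 815. For *Pdp2* 1 of the alternatives was the average of both its probes, at -0.67, which is a value of the gene. *Slc2a1*, *Slc2a4* and *Pdp2* stayed at an unadjusted p below 0.05 in each of them. *Pdk4* reached that limit with normexp background correction, with array weights and without HFD 1.

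**Figure D4:**
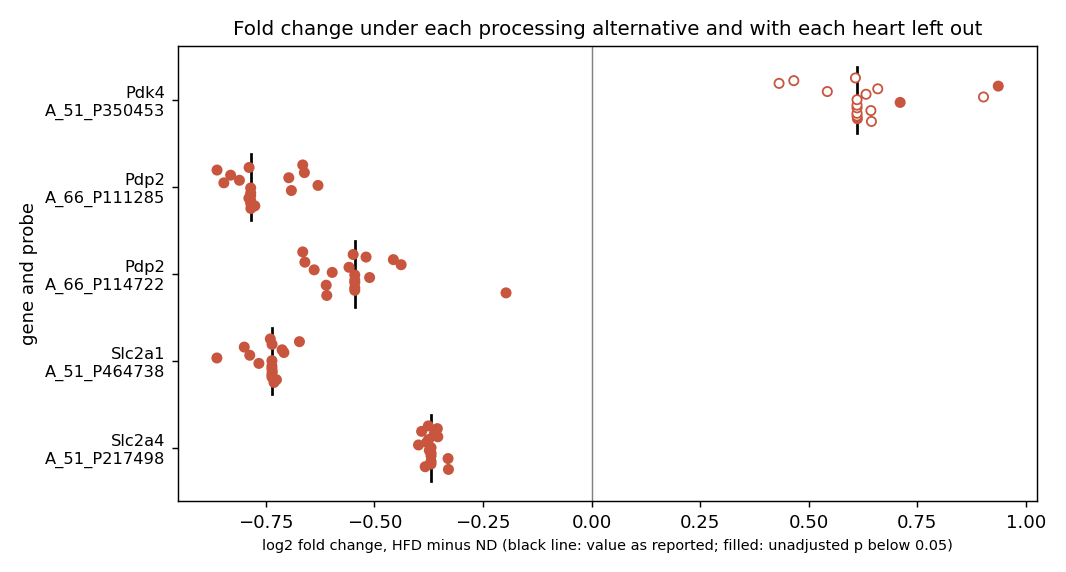
Log2 fold change of HFD over ND (x axis) of 5 member probes (y axis) under each processing alternative and with each heart left out, with the reported value as a black line. For *Pdp2* the average of both its probes is drawn in each of its rows as well. Filled points have an unadjusted p below 0.05 and open points do not. All points of *Slc2a1*, *Slc2a4* and *Pdp2* are filled and below 0, and those of *Pdk4* lie between 0.43 and 0.94, mostly open.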

How the data were processed

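The authors deposited 1 scanner file per array, with intensities on a linear scale from Agilent Feature Extraction 10.7 (per the submitters' processing notes). The software had subtracted background within an array, and no step had made the arrays comparable. A second deposited table holds log2 values of the same arrays, which matched a quantile normalization of these intensities and was used as an alternative. Its making is not given in the sources used here.

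Control spots and outlier spots (127 to 190 per array) were left out, spots of a probe averaged, log2 taken and the 75th percentile of the array subtracted. Per array, 49.2% to 52.9% of probes exceeded background clearly, no spot was saturated, and hearts of 1 diet correlated at 0.990 to 0.995. A probe was tested if well above background in all hearts of at least 1 diet and measured in 2 or more hearts of each (27575 probes). The test was that of limma 3.58.1 under R 4.3.3 (two-sided, lmFit then eBayes) with Benjamini-Hochberg adjustment. Each sample is 1 heart, and the 3 hearts per diet limit the precision. The methods' t-test with equal variances was an alternative. The packages jsonlite 2.0.0, statmod 1.5.0 and data.table (version 1.17.8) were loaded, and figures came from Python 3.11.15, pandas 2.3.3 and matplotlib 3.10.9. The fitting code was tested on simulated data.

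Named are all members, up to 6 genes of each of 5 lists (those at an unadjusted p below 0.05 by size of change, then by size of change), and the 5 probes most like the member with the lowest p in each direction. *Pdp1*, the pyruvate carriers, *Ppara*, *Angptl4* and *Lpl* were added after their values were seen. Lists use 1 probe per gene, the brightest tested. The members and lists were chosen with earlier results of these data known. Some genes of the lists are counted but not reported here by name.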

Additional observations from a re-analysis of the deposited data

How the results depend on the processing

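Of the 14 member probes, the number past the adjustment was 0 in limma as reported, 1 with normexp background correction (*Slc2a1*) and 2 under robust variances with an intensity trend (*Slc2a1* and *Slc2a4*). All probes called went from 4 to 45 and 97 under these, and were 0 to 10 otherwise. The number at an unadjusted p below 0.05 was 4 (11.9% of all probes), 6 with array weights (15.3% of all probes), and 4 to 7 with 1 heart left out (7 without HFD 2), where the share of all probes went from 8.04% (without ND 1) to 12.5% (without HFD 2). Values near 0 changed sign. With 1 heart left out, *Pdk3* ranged from -0.24 (without HFD 1) to 0.48 (without HFD 2), at -0.057 without ND 1. *Pdha1* was 0.032 with quantile normalization and 0.030 with the deposited log2 table. With 1 heart left out, *Pdha1* ranged from -0.063 (without HFD 2) to 0.045 (without HFD 1). The average over the probes of *Pdhb* was -0.0084, a value of the gene and not of its dim probe. The count of GLUT4 traffic genes at the unadjusted limit was 1, against 3 with quantile normalization, normexp, the deposited table, the intensity trend and array weights, 2 with the t-test or with probes well above background on all arrays, 0 with the slide row as a block, and 0 to 2 with 1 heart left out. That of the other glucose transporters was 0, against 1 with the t-test or the intensity trend, 2 with array weights, and 0 to 1 with 1 heart left out. That of the rest of the pyruvate dehydrogenase genes was 2, against 4 with array weights, 5 with the slide row, and up to 5 with 1 heart left out (without HFD 2). That of the transcription factors was 6, against 3 with the slide row and 3 without ND 1. The cause of these shifts was not tested. The labels do not say whether equal replicate numbers pair the hearts. Correlations of deviations from the diet mean were -0.15, 0.15 and 0.19 for equal numbers and -0.30 to 0.19 for unequal ones. With 3 hearts per diet these values cannot show whether hearts were paired. With the replicate number as a block, 0 member probes passed the adjustment and 5 met the unadjusted limit, beside 11.2% of all probes. The fifth was the dim *Pdhb* probe at 0.24. The dim probes of *Pdk3*, *Pdp2* (position 815) and *Pdhb* (A_55_P1969775) lay closest to the background, which limits their precision.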
